A study of Mus musculus with 9 samples.

Results

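Leg muscle that had received a peptide hydrogel together with aspirin was compared with leg muscle that had received aspirin only, 3 mice against 3. These are 6 of the 9 libraries of the series. The members were chosen by their treatment labels. Libraries from mice given aspirin and the gel are called hydrogel libraries here, and those from mice given aspirin only are called aspirin libraries. All mice were WT animals of the strain that the labels write as c57b6l. Every mouse, the 3 untreated controls included, had gone through a hindlimb procedure whose label combines suspension and ischemia. Each library was made from total RNA of leg muscles and is counted here as 1 mouse. Age, sex, dose, time after injury and the peptide that forms the gel are not stated in the labels, and gel without aspirin and muscle spared the procedure were not analysed here. The sample codes open with 8 in the hydrogel libraries, with 7 in Aspirin replicates 1 and 2 and with 10 in Aspirin replicate 3. Their meaning is not given, and what they may mark cannot be told apart from treatment.

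Ischaemic muscle passes through a known order of repair. Neutrophils enter early, monocytes follow and become macrophages that clear dead fibres, fibroblasts lay down matrix, satellite cells rebuild fibres and capillaries regrow. Aspirin blocks the cyclooxygenases, which make prostaglandins from arachidonic acid, and peptide hydrogels are water-rich scaffolds used to hold cells or drugs in tissue.

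The 6 libraries held 32197791 to 43561976 counts, and 18259 of 55335 genes passed the filter on low counts. Their identity as muscle was plain from the deposited FPKM (fragments scaled by gene length and library size). Skeletal actin (Acta1) stood at 5157 to 20960 FPKM, while the keratinocyte genes Krt5 and Krt14 were listed at 0 in all 6. The libraries of a group lay far apart, however. On the first principal component, with 51.9% of the variance of 14572 genes, the scores were -152 for Aspirin replicate 1, 101 for Hydrogel replicate 3 and -49.2 to 39.2 for the other 7 libraries of the series. Aspirin replicate 1 was poor in fibre transcripts, with 2692 CPM (library-scaled counts) of the fast myosin gene Myh4, against 42380 and 102900 CPM in the other aspirin libraries. It was rich in immune and dividing-cell transcripts. Medians over gene lists are therefore also given without Aspirin replicate 1, or without both, where that moved them by over 1.5 times.

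Adding the gel to aspirin went with lower inflammatory, matrix and cell cycle transcripts and with higher endothelial transcripts and transcripts of mitochondrial DNA. However, no gene passed the test across all genes, and the inflammatory, cell cycle and mitochondrial DNA differences were smaller without the 2 outlying libraries. Arg1, Lox and Hmox1 led the lower genes, and Ptprb and Ube2g2 the higher ones. In edgeR's quasi-likelihood test 0 of 18259 genes (0%) had an adjusted p under 0.05, and for the genes named below it ran from 0.453, the smallest of all, to 0.951 for Ptgs1. An unadjusted p under 0.05 was reached by 1996 genes (10.9%), of which 606 were higher with the gel (3.32% of genes) and 1390 lower (7.61%), where evenly spread p-values would give 913. That imbalance went with the 2 outlying libraries, without which 463 genes were higher and 327 lower, and limma-voom gave 877 and 985. Every hydrogel library lay above every aspirin library for 1362 genes (7.46%) and below for 1598 (8.75%), or 16.2% in either direction. The log2 fold change was beyond 1 in size for 3371 genes, 940 higher and 2431 lower. DESeq2, the alternative count test, called 156 genes (0.854%), 45 higher (0.246%) and 111 lower (0.608%), and limma-voom called 0 with a smallest adjusted p of 0.463. In simulated counts for this comparison, 2-, 4- and 8-fold changes were found at rates of 3.17%, 34.3% and 76.1% by edgeR, which also made 2 false calls. DESeq2 found them at rates of 15.9%, 71.4% and 91% and made 70 false calls. The simulation drew genes independently, held no outlying library and changed only genes averaging at least 1 CPM, so rates in the real data may differ. The plot of all genes by fold change and p shows the longer arm of genes on the lower side.

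**Figure D1:**
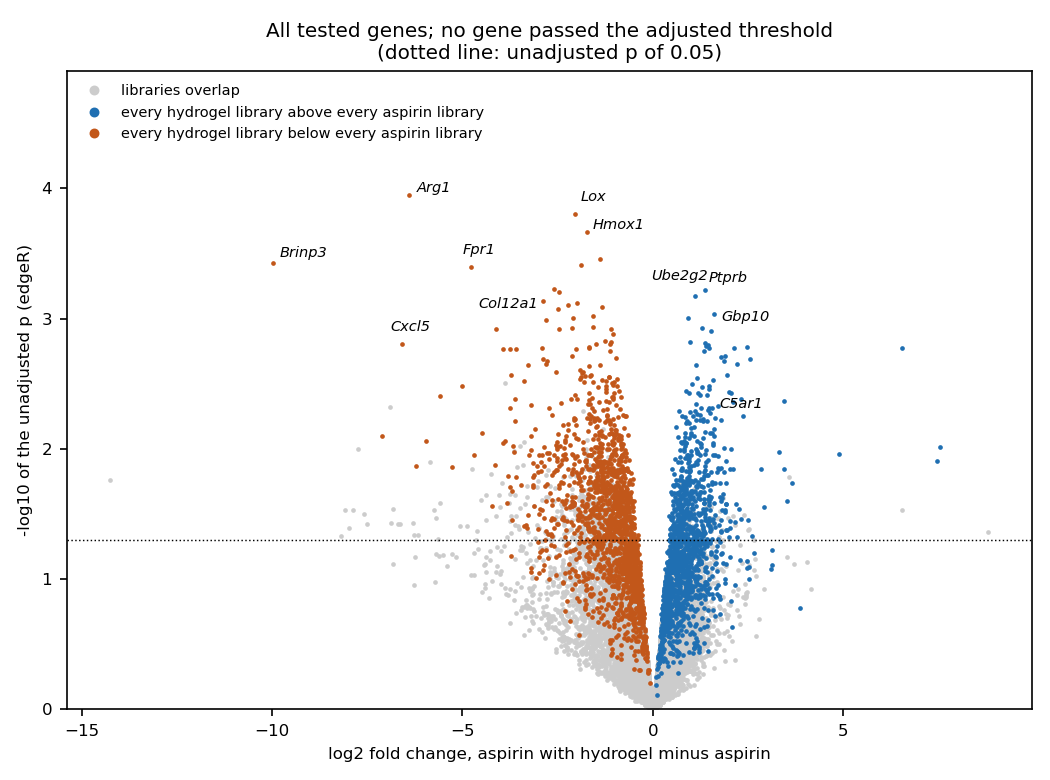
Each dot is 1 of 18259 genes, placed by its log2 fold change (aspirin with hydrogel minus aspirin, horizontal axis) and by -log10 of its unadjusted edgeR p (vertical axis). Orange genes (1598) lay below in every hydrogel library, blue genes (1362) above, and grey genes overlapped between the groups; 1390 genes on the left and 606 on the right lie over the dotted line at an unadjusted p of 0.05. A gene without counts in 1 group, such as Brinp3, sits at a fitted value that is no measure of its fold.

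Arg1, the arginase gene of alternatively activated macrophages, led the genes that were lower with the gel (ENSMUSG00000019987, mm10 chromosome 10, 24915221 to 24927484, minus strand, protein-coding, as are all genes with coordinates below except where stated). Its level was 24.9, 4.71 and 23.6 CPM in Aspirin replicates 1, 2 and 3 and at 0.387, 0.151 and 0.0667 CPM in Hydrogel replicates 1, 2 and 3, an order of replicates kept below. All 3 hydrogel values lay within or under the untreated range of 0.156 to 0.869 CPM, and each aspirin value lay above it. Its log2 fold change was -6.39 ± 0.98 (SE, with a 95% interval of -8.61 to -4.17), and DESeq2 called it with an adjusted p of 2.64e-10. Without Aspirin replicate 1 and Hydrogel replicate 3 together the value was -5.67. Hydrogel replicate 3 lay under the level of 3 counts in that library (0.1 CPM), so the size of the Arg1 fold rests on few counts. In a bulk sample fewer cells of a type and less RNA per cell cannot be told apart, which holds for every cell type marker below.

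Lox, which encodes the enzyme that crosslinks collagen and elastin (chromosome 18, 52516067 to 52529867, minus strand), stood at 154, 82.0 and 73.6 CPM with aspirin and at 22.5, 31.6 and 20.8 CPM with the gel. The groups were well apart, the controls lay at 31.8 to 42.6 CPM, and the log2 fold change was -2.05 ± 0.33 (DESeq2 adjusted p of 2.94e-05). Hmox1, the haem-degrading stress enzyme (chromosome 8, 75093621 to 75100589, plus strand), stood at 107, 92.6 and 66.4 CPM against 27.9, 31.8 and 20.1 CPM. Untreated muscle held 26.9 to 43.6 CPM, so the hydrogel libraries lay within or under the control range and the aspirin libraries over them. The log2 fold change of Hmox1 was -1.74 ± 0.29 (DESeq2 adjusted p of 0.000119). Without both outlying libraries Lox was at -1.52 and Hmox1 at -1.41.

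The other genes of smallest p on the lower side were mostly receptors of myeloid cells and secreted matrix proteins. Fpr1, the formyl peptide receptor by which neutrophils follow bacterial and mitochondrial peptides (chromosome 17, 17876471 to 17883940, minus strand), stood at 5.82, 1.92 and 6.77 CPM against 0.145, 0.272 and 0.1 CPM. Clec4n, the myeloid lectin receptor dectin-2 (chromosome 6, 123229843 to 123247021, plus strand), stood at 40.4, 15.7 and 19.9 CPM against 4.35, 6.32 and 3.20 CPM. Fcrls, a scavenger receptor-like gene of macrophages and microglia (chromosome 3, 87250758 to 87263738, minus strand), stood at 24.3, 22 and 16.8 CPM against 9.96, 6.59 and 7.47 CPM. None of these 3 genes overlapped between the groups, and their log2 fold changes were -4.78 ± 0.88, -2.45 ± 0.48 and -1.39 ± 0.25. The Fpr1 value of Hydrogel replicate 3 lay at the level of 3 counts in that library (0.1 CPM).

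Col12a1, a fibril-associated collagen of tendon and of healing muscle (chromosome 9, 79598991 to 79718831, minus strand), stood at 72.6, 20.3 and 85.1 CPM against a narrow 7.59, 8.61 and 7.91 CPM (log2 fold change -2.88 ± 0.57). Egfl6, a secreted EGF-repeat protein (chromosome X, 166523007 to 166585720, minus strand), stood at 1.55, 2.51 and 1.74 CPM against 0.290, 0.423 and 0.234 CPM. Zdhhc23, a palmitoyltransferase gene (chromosome 16, 43965033 to 43979791, minus strand), stood at 5.57, 3.16 and 3.71 CPM against 1.23, 1.06 and 1.10 CPM. Controls held 3.79 to 5.63 CPM of Zdhhc23, so 2 of the 3 aspirin values lay just under that range, 1 inside it and all 3 hydrogel values well under it. Brinp3, a gene studied mainly in the nervous system (chromosome 1, 146494760 to 146902472, plus strand), had no count in any hydrogel library and stood at 4.39, 0.656 and 4.12 CPM with aspirin. Against a floor of 3 counts per hydrogel library, averaged over the group (0.0878 CPM), its mean was at least 34.8-fold lower with the gel. DESeq2 called all 10 genes of smallest p on the lower side, with adjusted p-values from 2.64e-10 for Arg1 to 0.00131 for Egfl6.

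Ptprb, the endothelial phosphatase VE-PTP that acts on Tie2 and on VE-cadherin (chromosome 10, 116275523 to 116389535, plus strand), led the genes that were higher with the gel. It stood at 29.8, 33.2 and 44.5 CPM with aspirin and at 89.1, 89.6 and 98.3 CPM with the gel. The hydrogel values lay close together and inside the untreated range of 63.6 to 111 CPM, while the aspirin values lay under it. Its log2 fold change was 1.365 ± 0.27 (95% interval of 0.77 to 1.96, DESeq2 adjusted p of 0.00131). Without both outlying libraries it was 1.2.

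Ube2g2, a ubiquitin-conjugating enzyme of protein degradation at the endoplasmic reticulum (chromosome 10, 77622275 to 77645993, plus strand), stood at 33.9, 41.2 and 32.4 CPM against 83.7, 72.4 and 75.4 CPM. The untreated muscles held 57.7 to 86.7 CPM, so here too the aspirin libraries were the ones off the control level (log2 fold change 1.11 ± 0.22). Abcb1a, an efflux pump of capillary endothelium (chromosome 5, 8660077 to 8748575, plus strand), stood at 3.87, 4.24 and 5.66 CPM against 9.22, 10.8 and 13.9 CPM. Dach1, a transcription factor gene active in coronary artery growth (chromosome 14, 97786853 to 98169765, minus strand), stood at 1.39, 1.97 and 1.83 CPM against 5.01, 3.87 and 4.57 CPM. Abcb1a and Dach1 had log2 fold changes of 1.30 ± 0.28 and 1.37 ± 0.31, with no overlap between the groups.

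Bcl7a, a subunit of the SWI/SNF chromatin remodelling complex (chromosome 5, 123343834 to 123374992, plus strand), varied little within each group. It stood at 15.7, 13.8 and 16.6 CPM with aspirin and at 29.9, 29.0 and 28.0 CPM with the gel, above all 3 controls (17.3 to 24.5 CPM), a log2 fold change of 0.92 ± 0.19. Gbp10, an interferon-induced guanylate-binding protein (chromosome 5, 105215699 to 105239533, minus strand), stood at 12.5, 19.2 and 7.95 CPM against 44.1, 45.9 and 30.3 CPM. Its count is uncertain, because 1792 of its exonic bases also belong to Gm43302, a gene on that strand averaging 5.92 CPM, and because it belongs to a family of near copies. The list was completed by the phosphatase gene Ptpn3, the PHD-finger gene Phf3, the sodium pump subunit gene Atp1b1 and mt-Te, the mitochondrial tRNA for glutamate, with log2 fold changes of 1.53 ± 0.33, 0.99 ± 0.22, 1.41 ± 0.32 and 1.45 ± 0.33. DESeq2 called all 10, with adjusted p-values from 0.000929 for Ube2g2 to 0.00791 for Phf3. The plot of 12 leading genes by library shows that their groups do not overlap. The leading genes of both directions were picked by their edgeR p in these same libraries. Neither their separation nor the DESeq2 calls are therefore independent support.

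**Figure D2:**
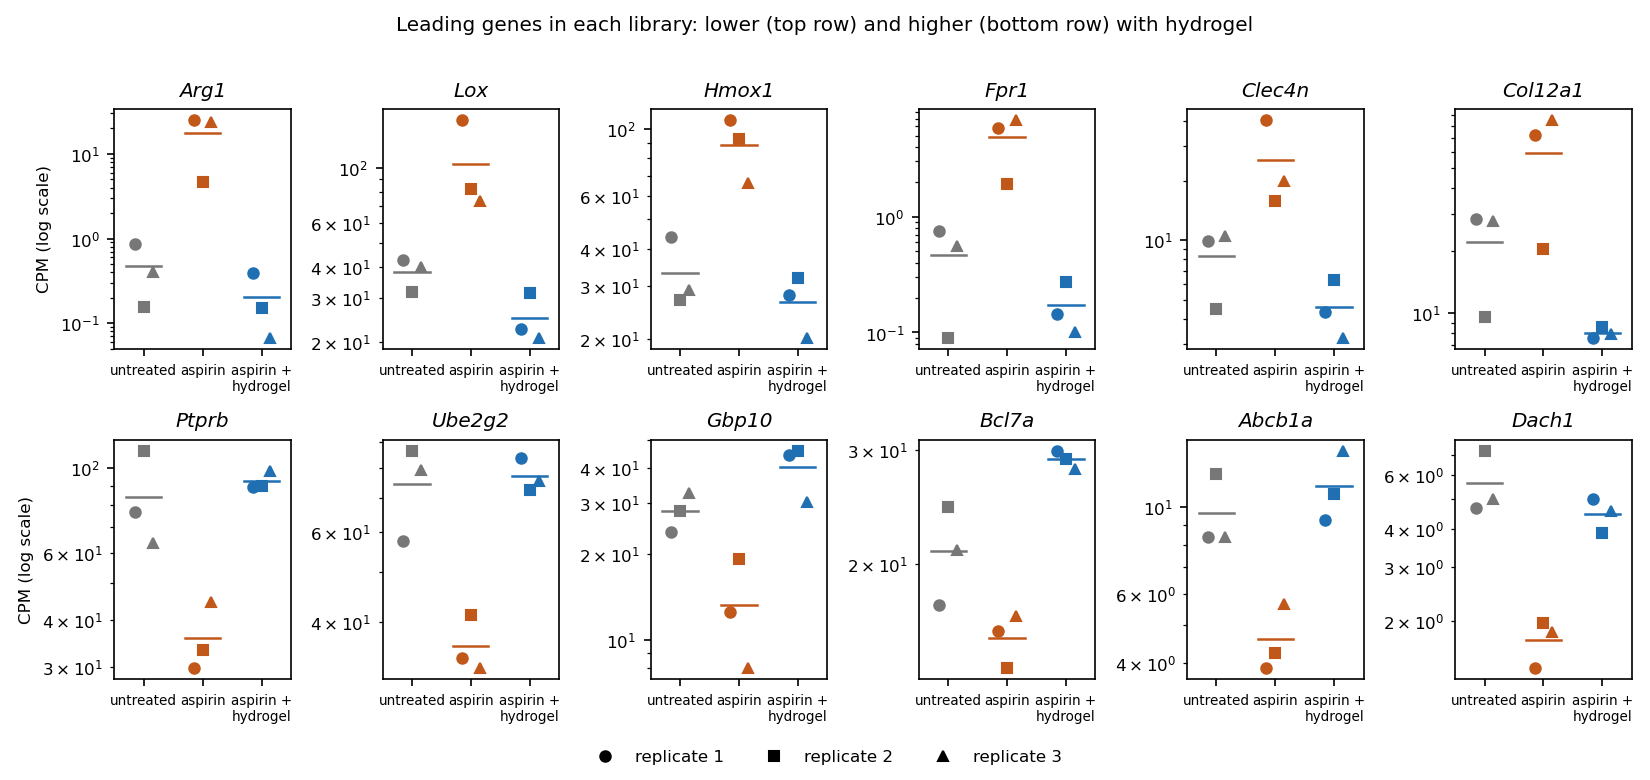
CPM (log scale, a separate axis for each gene) of 6 genes that were lower and 6 that were higher with the gel, in the 3 untreated, 3 aspirin and 3 hydrogel libraries. Marker shapes are replicates and bars are group means; Arg1 ran from 4.71 to 24.9 CPM with aspirin and from 0.0667 to 0.387 CPM with the gel, and Ptprb from 29.8 to 44.5 and from 89.1 to 98.3 CPM.

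Beyond single genes, 41 lists of genes with a known role or cell type were described by how many tested members lay higher or lower, beside a median log2 fold change of -0.05 over all 18259 genes (8520 higher, 9739 lower). Of 1207 list entries 1172 passed the filter on low counts, which a gene can pass through 1 group alone. Scaling by library size alone moved that overall median to -0.51, and each list is read relative to it. In the plot of list medians, neutrophil, cell cycle and cytokine genes lay at the lower end and genes of mitochondrial DNA at the upper end.

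**Figure D3:**
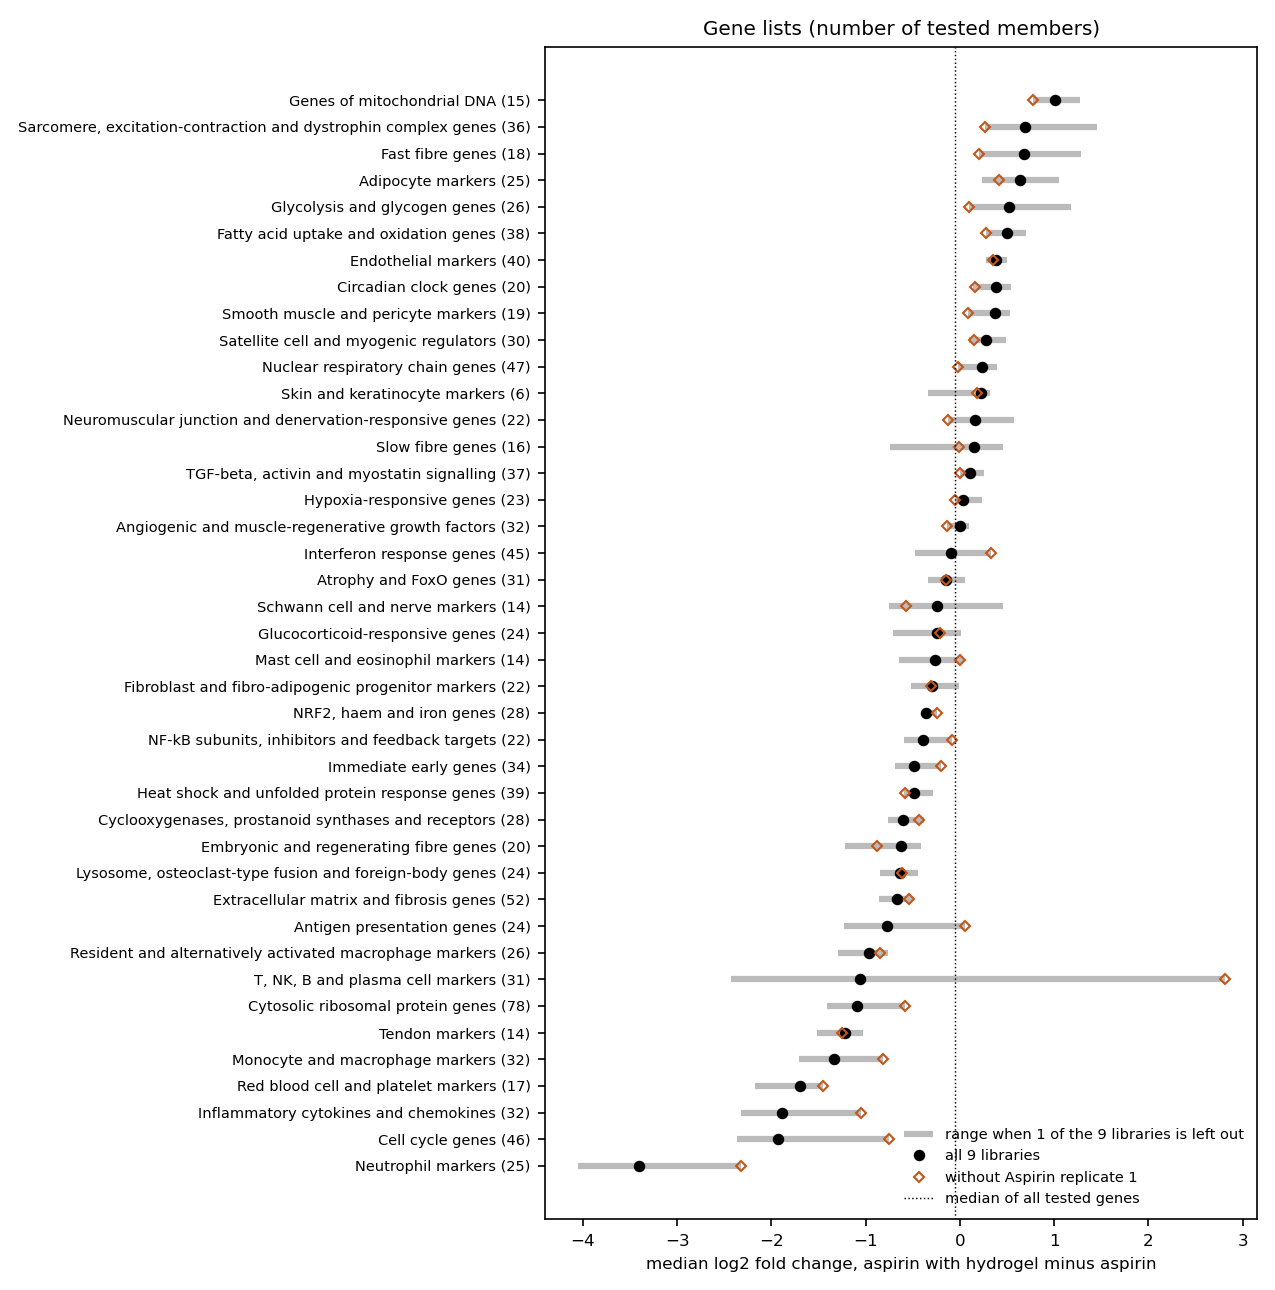
Median log2 fold change (aspirin with hydrogel minus aspirin) of 41 gene lists, with the number of tested members in brackets. Grey bars span the medians when 1 of the 9 libraries is left out, open diamonds leave out Aspirin replicate 1 and the dotted line is the median of all genes (-0.05); the neutrophil list lay at -3.40 and the list of mitochondrial DNA genes at 1.01.

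Neutrophil markers were lower as a group, though not in every library. All 25 tested members of 26 had a negative log2 fold change, with a median of -3.40, 17 of them at an unadjusted p under 0.05 (7.61% of all genes in that direction) and 10 with every hydrogel library below every aspirin library (8.75% of all genes). DESeq2 called 11. Besides Fpr1, Hdc, the histamine-forming enzyme gene, stood at 9.96, 3.07 and 9.12 CPM against 1.38, 1.93 and 1.74 CPM. Il1r2, the decoy receptor for interleukin 1, stood at 19.4, 7.43 and 7.29 CPM against 1.16, 3.05 and 1.94 CPM. Clec4e, the pattern receptor Mincle, stood at 12.8, 0.867 and 9.43 CPM against 0.556, 0.605 and 0.334 CPM. Both Clec4e and the summed neutrophil level (625, 66.8 and 294 CPM with aspirin, 57.4, 36.5 and 18.0 CPM with the gel) show Aspirin replicate 2 close to the hydrogel libraries and the other 2 aspirin libraries far above. The mean log2(CPM + 1) of the list was 1.21 in Aspirin replicate 2, under the 1.38 of Hydrogel replicate 1. The median log2 fold change was -2.33 without Aspirin replicate 1 and -1.86 without both outlying libraries.

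Monocyte and macrophage markers were lower in 31 of 32 members (median -1.33). On the lower side 13 had an unadjusted p under 0.05 (7.61% of all genes) and 11 did not overlap (8.75% of all genes). Itgam, the integrin chain CD11b, stood at 55.2, 35.8 and 51.1 CPM against 8.25, 19.6 and 7.78 CPM, a log2 fold change of -2.00 ± 0.40, although part of its count is uncertain since its exons overlap Gm49368. Ccr2, the receptor that draws monocytes out of the blood, stood at 20.8, 12.5 and 14.8 CPM against 5.85, 6.95 and 3.44 CPM. DESeq2 called Itgam, Ccr2 and Clec4n, with adjusted p-values of 0.00211, 0.0298 and 0.000929. The exception was C5ar1, the receptor for complement fragment C5a (chromosome 7, 16246743 to 16259540, minus strand), at 5.67, 6.68 and 2.83 CPM with aspirin and 18.1, 17.9 and 8.94 CPM with the gel. It was the only list member on the higher side, with a log2 fold change of 1.565 ± 0.42, and DESeq2 gave it an adjusted p of 0.0511. Summed macrophage markers stood at 4483, 3559 and 1838 CPM against 1467, 2025 and 652 CPM, so that Hydrogel replicate 2 lay above Aspirin replicate 3. The median was -0.81 without Aspirin replicate 1 and -0.46 without both outlying libraries.

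Markers of resident and alternatively activated macrophages were lower in 23 of 26 (median -0.96), and their median was -0.61 without both outlying libraries. An unadjusted p under 0.05 was reached by 7, all lower (7.61% of all genes in that direction), and DESeq2 called 4 (0.854% of all genes). Arg1 was among them. Msr1, a scavenger receptor, stood at 45.3, 27.9 and 14.8 CPM against 9.19, 8.92 and 3.17 CPM. Pf4, a chemokine of platelets and resident macrophages, stood at 53.7, 30.1 and 17.6 CPM against 13.2, 12 and 7.58 CPM. F13a1, the transglutaminase factor XIII chain that these macrophages make, stood at 104, 127 and 103 CPM against 25.8, 67.0 and 63.4 CPM. Each was free of overlap, with log2 fold changes of -2.05 ± 0.53, -1.63 ± 0.40 and -1.09 ± 0.35. A list of lysosomal, osteoclast-type fusion and foreign-body genes, the programme of macrophages around an implant, was lower in 18 of 24 members (median -0.64). Il4ra, the interleukin 4 receptor, led it with 84.5, 23.9 and 66.0 CPM against 11.8, 23.1 and 11.1 CPM, where Aspirin replicate 2 was barely above Hydrogel replicate 2. Tfeb, the master regulator of lysosome genes, lay the other way, at 11.1, 28.4 and 29.8 CPM against 36.4, 32.2 and 63.6 CPM.

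Inflammatory cytokines and chemokines were lower in 27 of 32 tested members of 36, with a median of -1.89. 15 had an unadjusted p under 0.05 (7.61% of all genes) and 9 did not overlap (8.75%), all on the lower side. DESeq2 called 3 (0.854% of all genes). Il1b, the central cytokine of neutrophil-rich inflammation, stood at 28.0, 2.30 and 36.2 CPM against 0.968, 0.846 and 0.234 CPM, a log2 fold change of -5.00 ± 1.26 (DESeq2 adjusted p of 0.000952). Cxcl5, which attracts neutrophils, stood at 17.3, 0.187 and 25.1 CPM against 0.145, 0.121 and 0.167 CPM, so the gap rested on Aspirin replicates 1 and 3. Ccl7, a monocyte attractant, stood at 16.8, 5.72 and 15.1 CPM against 2.35, 3.81 and 0.434 CPM. Il6, Tnf and Ccl2 overlapped between the groups because of Aspirin replicate 2, which held 0.0937, 0.328 and 2.55 CPM of them against hydrogel maxima of 0.272, 0.629 and 2.63 CPM. The median of the list was -1.05 without Aspirin replicate 1 and -0.87 without both outlying libraries.

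For the targets of aspirin themselves the groups overlapped. Ptgs1, the constitutive cyclooxygenase gene, stood at 4.48, 3.73 and 4.37 CPM against 4.96, 4.59 and 3.5 CPM, a log2 fold change of 0.05 ± 0.32 with a 95% interval of -0.67 to 0.78, and its sign turned with scaling by library size alone (-0.39). Ptgs2, the inducible one, stood at 2.23, 1.29 and 4.32 CPM against 0.145, 1.57 and 0.701 CPM, with an interval of -3.71 to 0.32. Over the list of cyclooxygenases, prostanoid and leukotriene enzymes and receptors, 22 of the 28 tested members of 31 were lower (median -0.605). An unadjusted p under 0.05 was reached by 3 of the lower members (7.61% of all genes in that direction) and by 2 of the 6 higher ones (3.32%). The median was -0.38 without Aspirin replicate 2. Alox5ap, the helper protein of leukotriene synthesis, stood at 39.9, 28.0 and 15.7 CPM against 12.9, 12.9 and 6.34 CPM. The leukotriene receptor gene Cysltr1 was likewise lower, at 7.10, 3.12 and 3.94 CPM against 1.67, 2.51 and 2.17 CPM. Alox12, the platelet-type lipoxygenase gene, lay higher, at 1.64, 1.12 and 2.17 CPM against 4.74, 2.96 and 3.30 CPM.

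The direction of lymphoid genes rested on 1 library. T, NK, B and plasma cell markers were lower in 26 of 31 members (median -1.06), but 0 had an unadjusted p under 0.05 in edgeR, and DESeq2 called 0. That library was Aspirin replicate 1, whose summed level was 9375 CPM against 88.7 and 97.2 CPM in the other aspirin libraries and 496, 697 and 69.6 CPM with the gel. Jchain, the joining chain of secreted antibodies, shows it best, at 919 CPM in Aspirin replicate 1 and 5.55 and 2.23 CPM in the others, against 16.1, 30.8 and 1.24 CPM. Without that library the list median was 2.81. Antigen presentation genes were lower in all 24 members (median -0.77), again with 0 at an unadjusted p under 0.05 in edgeR and 0 called by DESeq2, and their median was 0.05 without Aspirin replicate 1. Interferon response genes lay near the overall median (-0.10, 16 higher and 29 lower of 45), with Gbp10 the 1 member at an unadjusted p under 0.05. Without Aspirin replicate 1 they turned to 34 higher and 11 lower (median 0.33), without Hydrogel replicate 3 to 27 and 18 (0.13), and without both to 39 and 6 (0.67). Subunits, inhibitors and feedback targets of NF-kB were lower in 16 of 22 members (median -0.39), and their median was -0.086 without Aspirin replicate 1 and -0.004 without both outlying libraries.

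Of 52 genes for extracellular matrix and fibrosis 43 were lower, with a median of -0.66. 19 of the 52, all lower, had an unadjusted p under 0.05 (7.61% of all genes in that direction), and DESeq2 called 8 (0.854% of all genes). 24 lay without overlap on the lower side (8.75% of all genes) against 1 on the higher side (7.46%). Lox and Col12a1 led the list. Mmp3, the matrix protease stromelysin, stood at 282, 62.7 and 73.2 CPM against 15.9, 30.0 and 13.8 CPM, a log2 fold change of -2.81 ± 0.66. Thbs2, thrombospondin 2, which restrains vessel growth, stood at 98.4, 100 and 69.7 CPM against 31.8, 46.6 and 46.1 CPM, a log2 fold change of -1.11 ± 0.24. DESeq2 called both, with adjusted p-values of 0.00438 and 0.00754. Of the bulk collagens, Col1a1 stood at 1544, 1873 and 1553 CPM against 1017, 1377 and 956 CPM (log2 fold change -0.57 ± 0.38), and Col3a1 overlapped between the groups. The matrix median was -0.52 without both outlying libraries, close to its value with them.

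Tendon markers were lower in all 14 members (median -1.21), with 9 free of overlap (8.75% of all genes in that direction). Tnc, the matrix protein tenascin C of injured tissue, stood at 110, 22.3 and 45.3 CPM against 11.1, 11.8 and 4.07 CPM. Prg4, the lubricant protein lubricin of joints and tendon sheaths, stood at 7.08, 5.69 and 4.80 CPM against 2.08, 2.72 and 1.44 CPM. Their log2 fold changes were -2.71 ± 0.73 and -1.49 ± 0.33, and DESeq2 called both (adjusted p-values of 0.0161 and 0.00321). The summed tendon level was 471, 435 and 711 CPM with aspirin and 303, 321 and 230 CPM with the gel, and 240 to 772 CPM in the controls. How much of the matrix difference went with the amount of tendon in a sample was not tested. Markers of fibroblasts and fibro-adipogenic progenitors, the stromal cells that make muscle matrix, were lower in 15 of 22 (median -0.30), with 2 at an unadjusted p under 0.05, close to the share of all genes in that direction (7.61%). Without Aspirin replicate 2 the split was 11 and 11 (median -0.01). Bmp1, the protease that trims procollagen, stood at 100, 96.9 and 91.6 CPM against 53.0, 70.3 and 63.4 CPM.

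Members of TGF-beta, activin and myostatin signalling split in both directions, 22 higher and 15 lower of 37 (median 0.105, or -0.31 with scaling by library size alone, 0.003 without Aspirin replicate 1 and -0.07 without both outlying libraries). 12 of the 37 were free of overlap (16.2% of all genes), 9 of them higher (7.46% of all genes). Inhba, the activin A chain, stood at 4.45, 1.2 and 3.14 CPM against 0.581, 0.937 and 0.167 CPM (log2 fold change -2.37 ± 0.76). Ltbp4, which stores latent TGF-beta in the matrix, stood at 31.0, 58.9 and 42.9 CPM against 105, 97.8 and 94.5 CPM. Bmp6, a ligand made by endothelium, stood at 2.10, 4.66 and 3.03 CPM against 7.13, 8.07 and 9.01 CPM. DESeq2 called Ltbp4 and Bmp6 (adjusted p-values of 0.0187 and 0.0245).

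Endothelial markers lay on the higher side. Of 40 members 35 were higher (median 0.39), 8 of them at an unadjusted p under 0.05 (3.32% of all genes in that direction). Of the 5 lower members 1 also reached it (7.61% of all genes in that direction). On that side 10 lay without overlap (7.46% of all genes). With scaling by library size alone, however, the list median was -0.007, against -0.51 for all genes. Besides Ptprb, the VE-cadherin gene Cdh5 stood at 34.8, 53.1 and 79.0 CPM against 143, 136 and 99.1 CPM, a log2 fold change of 1.18 ± 0.37. Flt1, the VEGF receptor VEGFR1, stood at 13.7, 19 and 28.4 CPM against 35.4, 41.6 and 44.7 CPM. Cd300lg, a capillary mucin-like receptor, stood at 12.6, 20.5 and 19.2 CPM against 48.9, 36.1 and 28.5 CPM. The endothelial markers Pecam1 and Kdr, by contrast, overlapped between the groups in FPKM. Pecam1 stood at 19.8, 9.65 and 9.33 FPKM against 15.87, 14.83 and 5.84 FPKM, and Kdr at 1.74, 1.41 and 3.21 FPKM against 5.045, 4.09 and 2.02 FPKM. Hydrogel values lay inside the control range for Flt1 (32.1 to 49.4 CPM), and inside or under it for Cdh5 (104 to 203 CPM) and Cd300lg (38.6 to 63.4 CPM). Summed endothelial markers stood at 804, 935 and 956 CPM with aspirin, 1422, 1341 and 1050 CPM with the gel and 1269 to 1935 CPM in the controls, with no overlap between the 2 treated groups. The endothelial median was 0.35 without Aspirin replicate 1 and 0.50 without both outlying libraries.

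Growth factors of vessels and muscle repair showed no common direction (16 higher and 16 lower of 32, median 0.005, or 12 and 20 with -0.14 without Aspirin replicate 1). Fgf7, a stromal factor acting on epithelium, was lower, at 22, 8.97 and 8.32 CPM against 3.94, 3.81 and 4.04 CPM. Higher were Fgf1, at 4.71, 8.22 and 11.6 CPM against 17.7, 15.3 and 14.4 CPM, and Igfbp5, which binds insulin-like growth factors, at 124, 589 and 968 CPM against 1770, 1308 and 1760 CPM. Vegfa, the main growth factor of vessels, stood at 26.2, 68.2 and 96.3 CPM with aspirin and at an even 116, 117 and 121 CPM with the gel, a log2 fold change of 0.89 ± 0.48. Igf1 had a log2 fold change of -0.13 ± 0.28, with a 95% interval of -0.76 to 0.50. Hypoxia-responsive genes lay at the overall level (median 0.03, or -0.05 without Aspirin replicate 1), but Hilpda, a lipid droplet protein induced by hypoxia, stood at 11.2, 8.04 and 3.83 CPM against 2.35, 1.45 and 1.64 CPM and was called by DESeq2 (adjusted p of 0.00301). Epas1, the endothelial hypoxia factor HIF-2, lay higher, at 65.9, 65.5 and 102 CPM against 118, 129 and 133 CPM.

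Smooth muscle and pericyte markers were higher in 14 of 19 (median 0.37), with 0 at an unadjusted p under 0.05 in edgeR and 0 called by DESeq2. Without overlap lay 4 on the higher side (7.46% of all genes) against 1, Tagln, on the lower (8.75%). The list median was 0.09 without Aspirin replicate 1 (11 of 19 higher) and 0.20 without Hydrogel replicate 1 or without both outlying libraries. Myh11, the smooth muscle myosin, stood at 15.5, 26.1 and 20.3 CPM against 26.4, 32.5 and 32.3 CPM. Adipocyte markers were higher in 24 of 25 (median 0.64), yet 0 were free of overlap, and again 0 had an unadjusted p under 0.05 in edgeR or were called by DESeq2. Their summed level was 15490 CPM in Hydrogel replicate 1 and 5642 CPM in Hydrogel replicate 3, a range that took in both of the higher aspirin libraries (8814 and 8244 CPM). Without Hydrogel replicate 1 the adipocyte median was 0.23, with 15 of 25 higher, and without Aspirin replicate 1 it was 0.41. Red blood cell and platelet markers were lower in 16 of 17 (median -1.69), and their summed level was 3574 and 4375 CPM in Aspirin replicates 1 and 2 but 457 CPM in Aspirin replicate 3, among hydrogel values of 425 to 779 CPM.

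Fibre genes leaned to the higher side. Sarcomere, excitation-contraction and dystrophin complex genes were higher in 35 of 36 (median 0.69) and fast fibre genes in 18 of 18 (median 0.68), but just 1 of these 54 entries reached an unadjusted p under 0.05. That was Dmd, the dystrophin gene, at 12.6, 36.6 and 78.1 CPM against 90.8, 113 and 152 CPM, a log2 fold change of 1.48 ± 0.56. Both medians rested largely on Aspirin replicate 1, without which they were 0.26 and 0.20, and without both outlying libraries they were 0.08 and -0.11. Myh4, the fastest myosin, stood at 2692, 42380 and 102900 CPM against 51000, 66290 and 122400 CPM, so the groups overlapped. Slow fibre genes were 9 higher and 7 lower of 16 (median 0.15), 8 and 8 without Aspirin replicate 1 (median -0.005) and 5 and 11 without Hydrogel replicate 1 (median -0.75). Without both outlying libraries they were 12 higher and 4 lower (median 0.38).

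The regulators of muscle regeneration were mixed. Myod1, the early myogenic regulator (chromosome 7, 46376474 to 46379099, plus strand), stood at 8.09, 26.9 and 19.3 CPM with aspirin and at 39.8, 31.6 and 27.9 CPM with the gel. All 3 hydrogel libraries lay above the aspirin libraries, the lowest by a small margin, and above the controls (6.59 to 17.4 CPM). The log2 fold change was 0.87 ± 0.47 with a 95% interval of -0.18 to 1.93, and 0.52 without Aspirin replicate 1. Pax7, the satellite cell factor, stood at 1.68, 8.25 and 5.26 CPM against 7.01, 6.83 and 10.01 CPM, and Myog, which acts later in differentiation, at 14.2, 39.8 and 27.4 CPM against 24.5, 18.9 and 17.1 CPM. Among regulators of satellite cells and myogenesis 20 of 30 were higher (median 0.28, or -0.15 with scaling by library size alone, 0.15 without Aspirin replicate 1, 0.095 without Hydrogel replicate 2 and 0.04 without both outlying libraries). Of the 30, 3 had an unadjusted p under 0.05, all of them lower (7.61% of all genes in that direction). Embryonic and regenerating fibre genes were lower in 17 of 20 (median -0.62, or -1.22 without Hydrogel replicate 1). Ankrd1, a stress-induced titin-binding protein, stood at 52.5, 64.0 and 72.2 CPM against 51.0, 22.8 and 8.28 CPM, and Myl4, the embryonic light chain, at 72.3, 101 and 103 CPM against 66.8, 30.6 and 15.7 CPM. For both genes Hydrogel replicate 3 was lowest and Hydrogel replicate 1 nearly level with aspirin.

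Atrophy genes lay near the overall level (11 higher and 20 lower of 31, median -0.15), and turned to 19 and 12 (median 0.06) without Aspirin replicate 2 and to 5 and 26 (median -0.27) without both outlying libraries. Fbxo32 and Trim63, the muscle ubiquitin ligases atrogin-1 and MuRF1, were set by Aspirin replicate 2. Fbxo32 stood at 124, 796 and 50.6 CPM against 141, 186 and 152 CPM, and Trim63 at 109, 600 and 129 CPM against 151, 162 and 202 CPM. Without that library their log2 fold changes of -1.02 and -0.70 became 0.88 and 0.54. The metallothionein genes Mt2 and Mt1, which bind zinc and respond to glucocorticoids, were lower. Mt2 stood at 166, 88.5 and 32 CPM against 13.1, 15.5 and 18.7 CPM, and the controls ran from 10.4 to 104 CPM. At the neuromuscular junction, Agrn and its receptor gene Lrp4 lay higher, at 15.5, 17.3 and 18.1 CPM against 35.8, 30.4 and 21.1 CPM for Agrn and 3.32, 7.96 and 14.0 CPM against 18.0, 16.5 and 19.2 CPM for Lrp4. Runx1, which denervated muscle induces and blood cells also express, lay lower, at 33.9, 33.6 and 25.3 CPM against 20.1, 16.4 and 8.94 CPM. Their list had 14 members higher and 8 lower of 22, a split that turned to 8 and 14 without Aspirin replicate 1 (median -0.12, against 0.16 with it).

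Genes encoded by mitochondrial DNA were higher in all 15 members, with a median of 1.01. Of these, 2 had an unadjusted p under 0.05 (3.32% of all genes in that direction) and 8 were free of overlap (7.46%). DESeq2 called 1 (0.854% of all genes). mt-Nd5, a subunit of respiratory complex I, stood at 2412, 3618 and 5910 CPM against 9783, 9929 and 13320 CPM, a log2 fold change of 1.47 ± 0.54 (DESeq2 adjusted p of 0.0369). The share of counts from mitochondrial DNA was 7.67% to 8.70% with aspirin, 11.4% to 14.1% with the gel and 8.98% to 14.7% in the controls. The median was 0.77 without Aspirin replicate 1 and 0.58 without both outlying libraries. Nuclear genes of the respiratory chain had a median nearer to that of all genes (41 of 47 higher, median 0.23, or -0.15 with scaling by library size alone), and 0 had an unadjusted p under 0.05 in edgeR or were called by DESeq2. Without Aspirin replicate 1 their median was -0.02.

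In the list for uptake and oxidation of fatty acids 32 of 38 genes were higher (median 0.50), 11 of them without overlap (7.46% of all genes). Without Aspirin replicate 1 the median was 0.28, and without both outlying libraries 0.25 (27 of 38 higher). Ppargc1a, the coactivator PGC-1 alpha that drives mitochondrial gene expression, stood at 8.89, 25.7 and 33.3 CPM against 45.1, 44.2 and 53.2 CPM. Ppard, a fatty acid sensor, stood at 4.85, 13.4 and 13.3 CPM against 29.1, 17.5 and 19.6 CPM. Fabp3, the muscle fatty acid carrier, stood at 44.4, 106 and 114 CPM against 207, 122 and 171 CPM. In each of the 3 genes Aspirin replicate 1 was lowest, and the log2 fold changes were 1.07 ± 0.46, 1.07 ± 0.39 and 0.92 ± 0.40. Glycolysis and glycogen genes were higher in 22 of 26, or in 21 of 26 in the tally made for the alternatives (median 0.525 in both). Where a symbol belongs to more than 1 gene, the tallies can take a different gene for it. In the tally made for the alternatives the median was 0.09 without Aspirin replicate 1, 1.18 without Aspirin replicate 3, 0.22 without Hydrogel replicate 3 and -0.18 without both outlying libraries. Ldhb, the lactate dehydrogenase chain of oxidative fibres, stood at 16.2, 25.4 and 32.9 CPM against 131, 59.7 and 38.8 CPM, while Pgam1, the form of phosphoglycerate mutase found outside muscle fibres, was lower (log2 fold change -0.89 ± 0.29). Clock genes were higher in 16 of 20 (median 0.38, or -0.10 with scaling by library size alone), with 0 at an unadjusted p under 0.05 in edgeR and 0 called by DESeq2. The clock median was 0.16 without Aspirin replicate 1, 0.14 without Hydrogel replicate 3 and 0.06 (11 of 20 higher) without both.

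Cytosolic ribosomal protein genes were lower in all 78 members, with a median of -1.09. 63 of them had an unadjusted p under 0.05 (7.61% of all genes in that direction) and 48 were free of overlap (8.75%). DESeq2, however, called 1 (0.854% of all genes). That was Rps20, at 381, 127 and 114 CPM against 72.2, 67.3 and 56.4 CPM. The summed level was 40510, 22420 and 15860 CPM with aspirin, 14720, 12990 and 11700 CPM with the gel and 12450 to 18810 CPM in the controls, so that Aspirin replicate 3 lay just above Hydrogel replicate 1. The median was -0.58 without Aspirin replicate 1 and -0.48 without both outlying libraries.

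Among cell cycle genes 45 of 46 were lower (median -1.93). On the lower side 33 had an unadjusted p under 0.05 (7.61% of all genes) and 23 did not overlap (8.75%), with 0 of either on the higher side. Mki67, the proliferation marker, stood at 254, 20.6 and 21.5 CPM against 14.6, 16.2 and 2.70 CPM. Ccnb1, the mitotic cyclin B1, stood at 28.0, 3.47 and 2.34 CPM against 2.01, 1.51 and 0.567 CPM. Kif2c, a mitotic kinesin and the 1 member that DESeq2 called, stood at 13, 2.39 and 2.31 CPM against 1.16, 0.605 and 0.134 CPM. Most of the size of these differences came from Aspirin replicate 1, without which the log2 fold change of Mki67 was -0.915, against -3.15 with it, and the list median -0.75. Without both outlying libraries the list median was -0.46.

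Stress genes lay on the lower side. Of the genes for heat shock and the unfolded protein response 33 of 39 were lower (median -0.49, or -0.28 without Aspirin replicate 2). Among the lower ones 12 had an unadjusted p under 0.05 (7.61% of all genes in that direction). Hspa5, the chaperone BiP of the endoplasmic reticulum, stood at 372, 481 and 246 CPM against 215, 168 and 115 CPM. Pdia4, a disulphide isomerase, stood at 118, 83.5 and 45.7 CPM against 36.4, 38.9 and 28.7 CPM, and Manf, a secreted stress factor, at 108, 71.9 and 30.1 CPM against 28.3, 24.8 and 20.4 CPM. None of the 3 overlapped, and their log2 fold changes were -1.14 ± 0.35, -1.25 ± 0.35 and -1.51 ± 0.44. NRF2, haem and iron genes were lower in 18 of 28 (median -0.36, or -0.22 without both outlying libraries), led by Hmox1, and Nfe2l2, the NRF2 gene itself, had a log2 fold change of -0.60 ± 0.26. Among immediate early genes 25 of 34 were lower (median -0.48, or -0.205 without Aspirin replicate 1), among them Junb, at 44.8, 24.3 and 38.9 CPM against 13.4, 22.5 and 7.04 CPM. Against that direction, Nr4a1, an orphan nuclear receptor gene, stood at 40.4, 73.7 and 89.0 CPM with aspirin and at 136, 146 and 242 CPM with the gel. The plot of 10 lists by library sets these groups beside the untreated muscles.

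**Figure D4:**
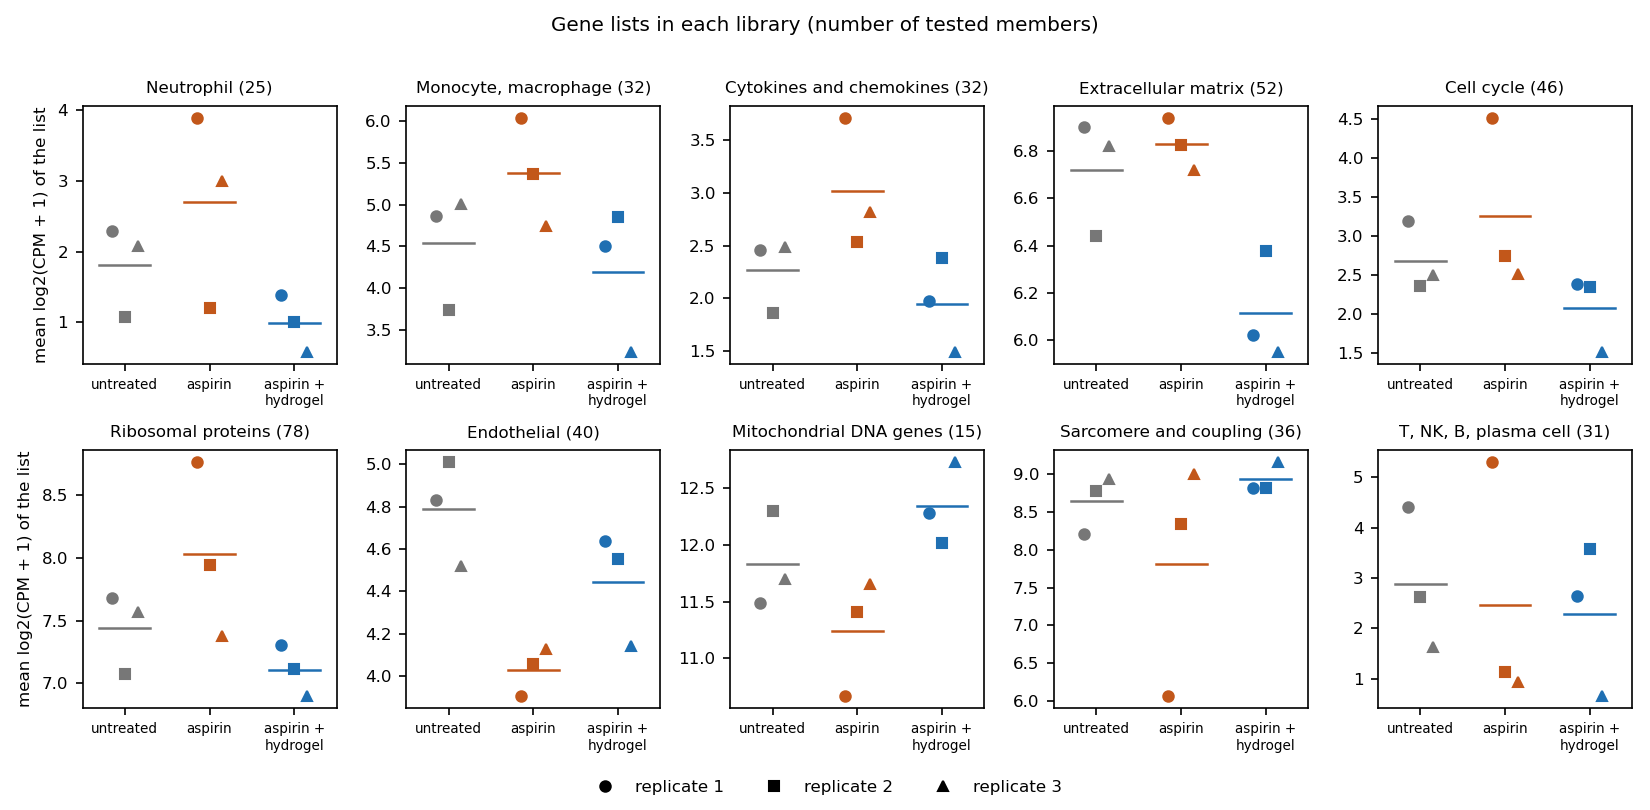
Mean log2(CPM + 1) over the tested members of 10 gene lists (vertical axis, a separate range for each list) in the 3 untreated, 3 aspirin and 3 hydrogel libraries; marker shapes are replicates and bars are group means. Aspirin replicate 1 (circles) stands apart in most panels, while the 3 hydrogel libraries do not overlap the 3 aspirin libraries in the cytokine, matrix, cell cycle, ribosomal protein, endothelial and mitochondrial DNA panels.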

How the data were processed

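Per the labels' protocols, sequencing libraries were made from leg muscle RNA with a SMARTER mRNA-Seq kit. The authors deposited whole-number counts per Ensembl gene and FPKM values for the same 9 libraries. Reads had been placed on mm10 according to the submitters' processing notes. The sources used here do not name the aligner, counting tool or annotation, or say whether strand was used. Coordinates come from GENCODE vM21 on that build, 1-based, and exonic overlaps were taken from it.

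Counts of all 9 libraries entered 1 fit in edgeR 4.0.16 (R 4.3.3) with TMM scaling and filterByExpr (minimum count 10, total 15); the robust quasi-likelihood test compared aspirin with hydrogel against aspirin, with Benjamini-Hochberg adjustment over 18259 genes and a threshold of 0.05. The common biological coefficient of variation was 0.503. Intervals are 95%. Levels are CPM on TMM-scaled library sizes, so levels of different genes are not comparable; a library with no count of a gene lies under 0.0554 to 0.1 CPM (3 counts), and such floors cover counting error only. DESeq2 1.42.0, limma-voom (limma 3.58.1), other scalings and filters, a replicate block and leaving out each library were alternatives; leaving out 2 libraries together was added after seeing the data. Tests were checked on simulated counts for 17757 genes.

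No 2 libraries agreed within sampling noise (smallest chi-square per degree of freedom 77.8), so none looked like a repeat sequencing of another. That check cannot show that the libraries come from separate mice, and each was counted as 1 mouse by its sample label. The members, gene lists and rules were chosen with earlier results of these data known, so no list is independent support. Genes named follow 1 rule: 10 genes of smallest p in each direction averaging at least 1 CPM (predicted names and pseudogenes left out), up to 4 non-overlapping members of each list (or the 2 of smallest p where none separates), and 25 anchor genes. Homer2, Ntf5 and F830016B08Rik, the keratin genes, Pecam1 and Kdr fall outside it and were named after their values were seen. Some genes that this rule names are not reported here.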

Additional observations from a re-analysis of the deposited data

How the results depend on the processing

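In edgeR 0 genes were called under every alternative but 2: with the replicate number as a block 1 gene was called (F830016B08Rik, log2 fold change 3.25, adjusted p of 0.0443), and without Aspirin replicate 3 2 genes (Homer2 at 2.91 and Ntf5 at 4.39, adjusted p of 0.0464), so that leaving out 1 library gave 0 to 2. DESeq2 called 156. Whether equal replicate numbers pair the mice is not stated in the labels. Deviations from the group means of Aspirin and Hydrogel replicates 1, 2 and 3 correlated at 0.293, -0.441 and 0.482 across genes. These values cannot decide it, because deviations among 3 libraries depend on each other and 2 of the libraries are outlying. The number of genes at an unadjusted p under 0.05 was 2512 with the block, 2680 with library size alone (189 higher, 2491 lower), 1862 with limma-voom (877 higher, 985 lower), 2697 with DESeq2, 900 to 4239 with 1 library left out (900 without Hydrogel replicate 3, 1005 without Aspirin replicate 1, 4239 without Aspirin replicate 3) and 790 (463 higher, 327 lower) without Aspirin replicate 1 and Hydrogel replicate 3 together. Genes without overlap numbered 2769 with library size alone (570 higher, 2199 lower), 4116 to 7934 with 1 library left out, where 3 against 2 libraries separate more easily, and 6656 without both.

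Of 41 list medians 28 kept their sign when each of the 9 libraries was left out and 22 under all 18 alternatives. With library size alone, where the median of all genes was -0.51, the median was -1.48 (resident macrophage), -1.09 (lysosome and foreign-body), -1.10 (prostanoid), -0.98 (NF-kB), -0.81 (mast cell and eosinophil), -2.51 (red blood cell and platelet), -1.13 (matrix), -0.80 (fibroblast), -1.62 (tendon), -0.007 (endothelial), -0.38 (growth factor), -0.15 (skin), -0.15 (myogenic), -0.66 (atrophy), -0.44 (hypoxia), -1.71 (ribosomal protein), -0.945 (heat shock), -0.82 (NRF2), -0.94 (immediate early), -0.10 (clock), -0.89 (glucocorticoid) and -0.31 (TGF-beta). Without Aspirin replicate 1 and Hydrogel replicate 3 together it was -1.86 (neutrophil), -0.46 (monocyte and macrophage), -0.87 (cytokine), -0.385 (prostanoid), -0.004 (NF-kB), 0.67 (interferon), 0.43 (antigen presentation), 3.38 (lymphoid), -0.48 (ribosomal protein), -0.46 (cell cycle), -0.13 (immediate early) and -0.07 (TGF-beta). Leaving out 1 library gave ranges of -4.06 to -2.325 (neutrophil), -2.32 to -1.05 (cytokine), -0.76 to -0.38 (prostanoid), -2.43 to 2.81 (lymphoid), -0.86 to -0.51 (matrix), -1.52 to -1.03 (tendon), -0.75 to 0.45 (Schwann cell), -0.34 to 0.32 (skin), -0.75 to 0.45 (slow fibre), -0.051 to 0.23 (hypoxia), -2.365 to -0.75 (cell cycle), -0.68 to -0.205 (immediate early), -0.71 to 0.007 (glucocorticoid) and 0.003 to 0.26 (TGF-beta). The prostanoid median was -0.43 with limma-voom and -0.41 with the replicate block, and the hypoxia median 0.19 with limma-voom. The cause was not tested. Of 98 named genes followed through the 18 alternatives, 91 kept their direction under all of them. With 1 library left out, the log2 fold change ran from -5.21 to 2.04 for Jchain, -0.045 to 0.16 for Ptgs1, -1.525 to 0.88 for Fbxo32, -1.08 to 0.54 for Trim63, -0.37 to 0.004 for Igf1 and -0.003 to 1.11 for Acta1. Without both libraries it was 2.59 for Jchain, 0.075 for Igf1, -0.26 for Acta1 and -0.31 for Myh4, and with library size alone -0.39 for Ptgs1. DESeq2 called 41 of the 98. At 3 mice a group, edgeR recovered 34.3% of simulated 4-fold changes, which limits what could be called.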

Other observations

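Cell types and responses outside the groups above gave these values. Mast cell and eosinophil markers were lower in 13 of 14 tested members of 17 (median log2 fold change -0.26, or 0.004 without Aspirin replicate 1 and 0.03 without Aspirin replicate 2), and their summed level was 70.1, 70.4 and 23.6 CPM with aspirin and 33.2, 45.8 and 47.5 CPM with the gel. Schwann cell and nerve markers were lower in 10 of 14 tested members of 17 (median -0.24, or -0.57 without Aspirin replicate 1 and 0.45 without Aspirin replicate 3). Mbp, the myelin basic protein gene, stood at 19, 17.2 and 19.6 CPM against 8.37, 17.0 and 4.94 CPM, so that Hydrogel replicate 2 lay just under the aspirin libraries. Glucocorticoid-responsive genes were lower in 14 of 24 (median -0.25, or 0.007 without Hydrogel replicate 1 and -0.43 without both outlying libraries). Among the lower ones 7 had an unadjusted p under 0.05 (7.61% of all genes in that direction). Ctgf, a matrix-associated growth factor, was among these, at 70.5, 17.7 and 19 CPM against 9.29, 17.2 and 16.1 CPM. In skin and keratinocyte markers 6 of 17 members passed the filter on low counts.

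C5ar1 and Itgam are both carried by neutrophils and monocytes, yet their log2 fold changes were 1.565 and -2.00, and neither pair of groups overlapped. Of the genes on the higher side, Tfeb, Nr4a1 and C5ar1 are also expressed by macrophages, whose listed markers lay on the lower side in 31 of 32 members.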
